A study of Mus musculus with 6 samples.

Results

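Multipotent pancreatic progenitors are marked by a set of transcription factors, of which Pdx1, Nkx6-1, Gata6, Mnx1, Prox1, Onecut2 and Myc are described here. The 7 genes were chosen by name and every probe set annotated to 1 of them alone was taken, which gave 14 of 34958 probe sets and 7 of 18194 genes. RNA came from whole pancreases of C57BL/6 embryos at embryonic day 15.5, 3 Jarid2 knockout samples (Jarid2 Δpanc) and 3 wild-type samples (Jarid2 WT), and was hybridized to 6 Affymetrix mouse arrays after 2 cycles of cDNA synthesis from 50 ng. Jarid2 encodes an accessory subunit of the Polycomb repressive complex PRC2, which methylates lysine 27 of histone H3. In Jarid2 Δpanc embryos floxed Jarid2 alleles are recombined by a Cre under the Pdx1 promoter, so that deletion takes place in the pancreatic epithelium and in mosaic fashion, while mesenchyme, vessels and blood keep the gene. Whether the Jarid2 WT embryos carried the Cre is not given in the sources used here. The labels number the embryos within each group and name no litters, so p-values measure the spread between these samples only.

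Pancreatic buds form from foregut endoderm that expresses Pdx1, and early progenitors can give rise to acinar, ductal and endocrine cells. As the epithelium branches, tip cells turn to the acinar fate and trunk cells to the ductal and endocrine fates, and factors that were shared by all progenitors become restricted. Pdx1, Nkx6-1 and Mnx1 persist in β-cells, Gata6 and Prox1 persist in other epithelial cells of the organ, and Prox1 is also a defining factor of lymphatic endothelium and is expressed in hepatocytes.

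The start regions of Prox1 and Pdx1 are shown because Prox1 was the member with non-overlapping groups on its brightest probe set, and because the Pdx1 promoter drives the Cre. The sequences are from RefSeq (build GRCm38.p6), run from 250 bases before to 50 after an annotated start on the strand of the gene, and were found for 4 of the 7 genes. Prox1 had 2 such windows, chr1:190169466-190169765 and chr1:190170778-190171077, both on the minus strand, and the Pdx1 window is chr5:147269847-147270146 on the plus strand. Capitals mark matches on either strand to the TATA box TATAAA, the CCAAT box, the E-box CACGTG, the GATA motif AGATAA or the homeodomain motif CTAATTA, none of which overlap each other here.
Prox1, first window: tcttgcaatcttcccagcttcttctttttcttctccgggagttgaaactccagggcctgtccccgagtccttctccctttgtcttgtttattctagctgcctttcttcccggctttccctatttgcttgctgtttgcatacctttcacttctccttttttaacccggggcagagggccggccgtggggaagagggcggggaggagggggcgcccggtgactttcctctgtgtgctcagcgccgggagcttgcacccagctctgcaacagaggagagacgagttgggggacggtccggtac
Prox1, second window: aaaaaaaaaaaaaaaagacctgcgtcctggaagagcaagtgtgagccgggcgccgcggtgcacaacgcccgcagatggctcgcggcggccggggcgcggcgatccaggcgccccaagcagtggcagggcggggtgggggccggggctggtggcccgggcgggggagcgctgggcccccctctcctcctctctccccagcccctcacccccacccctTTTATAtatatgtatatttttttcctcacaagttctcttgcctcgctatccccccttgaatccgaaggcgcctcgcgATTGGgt
Pdx1: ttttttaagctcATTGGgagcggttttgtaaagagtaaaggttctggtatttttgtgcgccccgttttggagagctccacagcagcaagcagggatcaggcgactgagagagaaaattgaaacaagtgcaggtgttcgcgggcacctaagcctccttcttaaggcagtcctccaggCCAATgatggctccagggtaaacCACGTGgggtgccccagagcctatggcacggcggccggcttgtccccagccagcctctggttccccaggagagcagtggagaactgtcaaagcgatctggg
The first Prox1 window held no match and 14 CpG dinucleotides, whereas the second held 1 TATA box, 1 CCAAT box and 25 CpG, more CpG than in 81.6% of promoters. The Pdx1 window held 2 CCAAT boxes, 1 E-box and 11 CpG. The TATA box was found in 13.6%, the CCAAT box in 37.4%, the E-box in 7.15%, the GATA motif in 11.2% and the homeodomain motif in 2% of 32851 promoters of the same length. These matches describe the letters in the windows and the array measured no binding to them.

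Levels are given as array signal, a linear intensity scaled on each array to a trimmed mean of 150, and differences as log2 of Jarid2 Δpanc over Jarid2 WT after signals under 16 were set to 16. Array medians were 36 to 38 in Jarid2 Δpanc and 35 to 36 in Jarid2 WT, and 26.5% to 28.1% against 27.2% to 29% of probe sets lay under the floor of 16. The 3 Jarid2 probe sets had log2 differences of 0.01 to 0.13. Whether their probes lie in the deleted exon was not checked, so these values do not test the deletion. The paper measured a reduction of that exon at this stage by qRT-PCR. Xist, which acts in X inactivation, had signals of 4662, 4905 and 4197 in Jarid2 Δpanc, against 24, 12 and 4390 in Jarid2 WT, and muscle markers stood out in Jarid2 WT replicate 3, where the summed signal of 12 of them was 17953, against 457 to 527 in Jarid2 Δpanc. Pancreatic epithelium markers had summed signals of 23084 to 25369 in Jarid2 Δpanc and 25235 to 27987 in Jarid2 WT, and none of the 12 was under the floor on all arrays. In these bulk samples fewer cells of a type and less RNA per cell cannot be told apart.

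No member passed the test across all probe sets, and most were near the Jarid2 WT level. With limma and Benjamini-Hochberg adjustment, 0 of the 14 member probe sets had an adjusted p under 0.05, where the background was 0.00286% of all probe sets (1 of 34958, the ceruloplasmin gene Cp, with 23, 23 and 23 in Jarid2 Δpanc against 7, 13 and 16 in Jarid2 WT, which the floor turned into equal values without spread). At an unadjusted p under 0.05, 3 of the 14 were higher in Jarid2 Δpanc (21.4%, against 4.61% of all probe sets) and 0 were lower. With every array scaled to the same median, 2 of the 14 were higher, against 2.64% of all probe sets. The count of higher probe sets was 1 without Jarid2 Δpanc replicate 1, where 1 other was lower, and 1 without Jarid2 WT replicate 3. It was 2 without Jarid2 Δpanc replicate 2 or 3. Which probe sets made up the count also changed. Without Jarid2 Δpanc replicate 2 they were Prox1 1457432_at and Onecut2 1460044_at, the latter near the floor. Without Jarid2 WT replicate 1 the count stayed at 3, with Pdx1 1422174_at in place of Gata6 1443081_at. The 3 of the fit with all 6 samples also had every Jarid2 Δpanc sample above every Jarid2 WT sample, against 6.12% of all probe sets. These 3 were a pair of Prox1 probe sets and the dimmest of the 3 Gata6 probe sets. Among the 14, 0 had every Jarid2 Δpanc sample below, against 4.61% of all probe sets. Taking the brightest probe set of each gene, 1 of 7 members lay above and 0 below, against 5.71% and 5.66% of 18194 genes. The median log2 difference was 0.18 over the 14 member probe sets and 0.02 over the 6 with a mean signal of at least 64, against 0 over all 34958 and 0.02 over 15872 of at least 64.

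**Figure D1:**
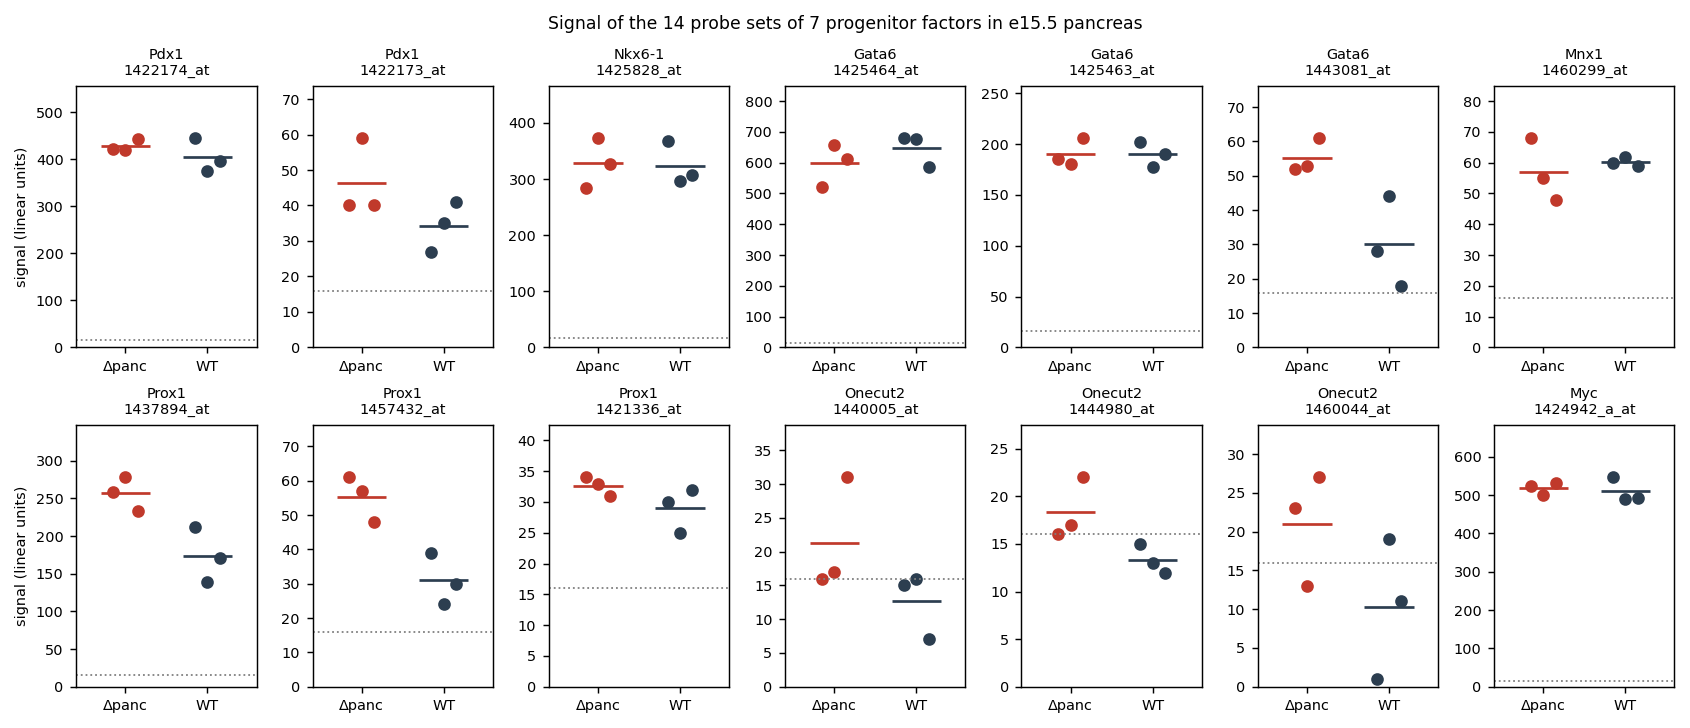
Signal (linear array units, y axis from 0, with its own scale in each panel) of each probe set of the 7 genes in the 3 Jarid2 Δpanc samples (red, left) and the 3 Jarid2 WT samples (dark, right). Points are samples, horizontal bars are group means and dotted lines mark the floor of 16; the groups lie apart for Prox1 1437894_at and 1457432_at and for Gata6 1443081_at, and all 3 Onecut2 probe sets lie near the floor.

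Prox1, a homeodomain factor of pancreatic progenitors and of ductal and endocrine cells, had the only bright probe set among the members on which the groups did not overlap. Probe set 1437894_at had signals of 258, 278 and 234 in Jarid2 Δpanc and 212, 139 and 171 in Jarid2 WT. The lowest Jarid2 Δpanc sample lay 22 signal units above the highest Jarid2 WT sample, and Jarid2 WT was the more spread group. The means were 257 ± 22 in Jarid2 Δpanc and 174 ± 36.6 in Jarid2 WT (SD, n = 3 each), a log2 difference of 0.58 ± 0.18 (SE) with a 95% interval of 0.11 to 1.05, or 1.49-fold. The unadjusted p was 0.0262 and the adjusted p 0.506 in limma. Of all probe sets, 2.35% had a higher log2 difference. The exact two-sided permutation test gave 0.1, which is the smallest p that 3 against 3 samples allow.

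A dimmer Prox1 probe set ran the same way and the third did not separate the groups. Probe set 1457432_at had 61, 57 and 48 in Jarid2 Δpanc against 39, 24 and 30 in Jarid2 WT, without overlap, and a log2 difference of 0.86 ± 0.21 (95% interval 0.29 to 1.42, adjusted p = 0.408 in limma). Probe set 1421336_at had 34, 33 and 31 in Jarid2 Δpanc against 30, 25 and 32 in Jarid2 WT. Those groups overlapped by 1 signal unit and the log2 difference was 0.18 ± 0.11 (95% interval -0.10 to 0.46, adjusted p = 0.795 in limma). The annotation pairs 1421336_at with a RefSeq mRNA of Prox1 and the other pair with expressed sequence tags. The noncoding neighbour Prox1os had 28, 19 and 41 in Jarid2 Δpanc and 44, 26 and 20 in Jarid2 WT, which overlapped.

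On Prox1 1437894_at and 1457432_at the groups did not overlap, so leaving out a sample could not turn the sign and shows only the size. Leaving out each sample in turn gave log2 differences of 0.43 to 0.73 for 1437894_at (adjusted p 0.389 to 0.718 in limma), of 0.69 to 1.04 for 1457432_at (adjusted p 0.356 to 0.638 in limma) and of 0.08 to 0.25 for 1421336_at (adjusted p 0.632 to 0.904 in limma). Without Jarid2 WT replicate 3 the difference of 1437894_at was 0.58, and against that replicate alone, the only Jarid2 WT sample with high Xist, it was 0.58 as well. The difference of 1421336_at was 0.25 and 0.03 in the same order. That replicate is a single array, in which muscle markers also stood out, so these values give sizes only. The Y-linked Eif2s3y had 7, 5 and 13 in Jarid2 Δpanc against 560, 506 and 9 in Jarid2 WT, so no Jarid2 Δpanc sample matched Jarid2 WT replicates 1 and 2, and the part of sex in the Prox1 values was not tested. Within arrays, the log2 ratio of Prox1 to Pdx1 relative to the Jarid2 WT mean was 0.53, 0.65 and 0.32 in Jarid2 Δpanc, against 0.17, -0.20 and 0.03 in Jarid2 WT.

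Markers of other cell types that express Prox1 are given beside it. Of 11 markers of blood and lymphatic endothelium, 10 had a positive log2 difference, with a median of 0.15. Of all 18194 genes, 8674 were positive. Other lists outside the epithelium ran the same way, with 12 of 13 mesenchyme markers positive (median 0.13) and 6 of 9 markers of neurons and glia (median 0.17). Among the 11 endothelial markers, Pdpn, a marker of lymphatic endothelium, was the 1 with every Jarid2 Δpanc sample above every Jarid2 WT sample. It had 199, 233 and 168 in Jarid2 Δpanc against 142, 157 and 164 in Jarid2 WT (log2 difference 0.36, adjusted p = 0.615 in limma), and was named after its values were seen. That 1 of 11 is 9.09%, against 5.71% of all genes. The others overlapped, such as Lyve1 with 286, 368 and 282 in Jarid2 Δpanc against 238, 296 and 323 in Jarid2 WT. The summed signal of the 11 was 1929 to 2220 in Jarid2 Δpanc and 1846 to 2005 in Jarid2 WT. Mean log2 levels of that list overlapped in 1 sample of each group, with 0.16, 0.22 and 0.05 in Jarid2 Δpanc and -0.05, -0.02 and 0.07 in Jarid2 WT relative to the Jarid2 WT mean. Liver markers were high in 1 sample of each group, at 0.96 in Jarid2 Δpanc replicate 3 and 0.89 in Jarid2 WT replicate 2, which were the lowest Prox1 samples of their groups on 1437894_at. Trunk and duct markers had a median log2 difference of -0.10 over 8 genes, with 2 below (25%, against 5.66% of all genes) and 0 above. Acinar and endocrine markers stood at medians of -0.43 and -0.24. Of these, 6 of 10 (60%) and 6 of 11 genes (54.5%) were below in every Jarid2 Δpanc sample, against the same 5.66%. Both lists hold genes that the paper reports as downregulated in these arrays. The part of these cell types in the Prox1 values was not tested.

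**Figure D2:**
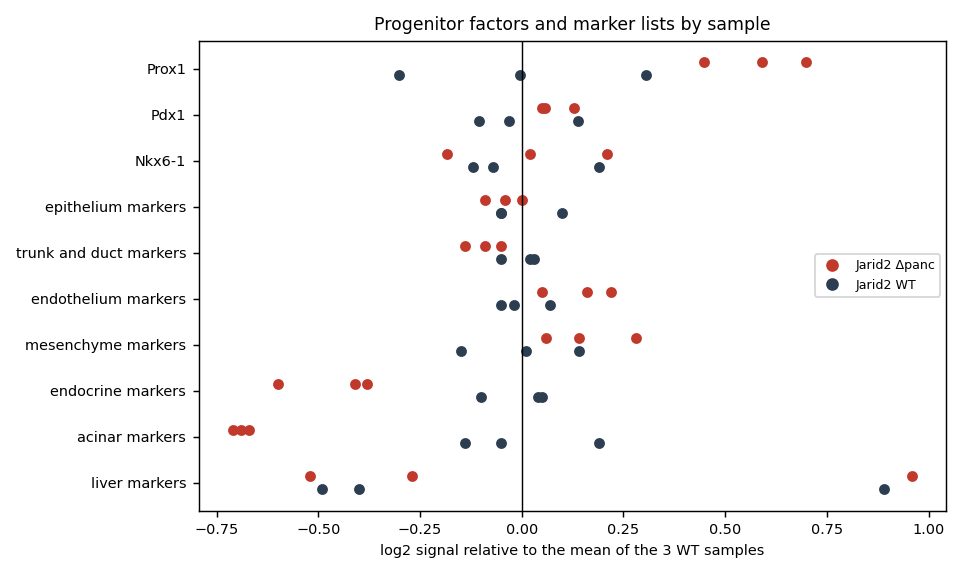
Log2 signal minus the mean over Jarid2 WT (x axis) for the brightest probe sets of Prox1, Pdx1 and Nkx6-1 and for the mean of each marker list (rows), with Jarid2 Δpanc samples in red above and Jarid2 WT samples in dark below. Prox1 lies apart to the right and acinar and endocrine markers to the left, whereas Pdx1, Nkx6-1, epithelium and endothelium markers overlap.

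Pdx1, the homeodomain factor without which the pancreas does not form, was near the Jarid2 WT level. Its bright probe set 1422174_at had 421, 419 and 442 in Jarid2 Δpanc and 445, 376 and 396 in Jarid2 WT. The highest signal of all was in a Jarid2 WT sample and the groups overlapped. The means were 427 ± 12.7 in Jarid2 Δpanc and 406 ± 35.5 in Jarid2 WT (SD, n = 3 each), and the log2 difference of 0.08 ± 0.07 had a 95% interval of -0.11 to 0.27 (adjusted p = 0.823 in limma), or 0.925-fold to 1.2-fold. The dim probe set 1422173_at had 40, 59 and 40 in Jarid2 Δpanc against 27, 35 and 41 in Jarid2 WT, with overlap and a wider interval of -0.21 to 1.07. Plut, a noncoding gene that overlaps Pdx1 in the annotation, had 51, 53 and 67 in Jarid2 Δpanc and 52, 76 and 61 in Jarid2 WT, likewise overlapping.

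Nkx6-1, a homeodomain repressor of trunk progenitors and β-cells, had 284, 373 and 327 in Jarid2 Δpanc and 368, 297 and 307 in Jarid2 WT on its single probe set. Jarid2 Δpanc held both the lowest and the highest signal. The log2 difference was 0.02 ± 0.14 with a 95% interval of -0.35 to 0.39 (adjusted p = 1 in limma), and its sign turned under median scaling and when some samples were left out. Mnx1, a homeodomain factor needed for the dorsal bud and later in β-cells, had 68, 55 and 48 in Jarid2 Δpanc and 60, 62 and 59 in Jarid2 WT. The Jarid2 WT signals lay inside the range of Jarid2 Δpanc, at a log2 difference of -0.10 ± 0.14 (95% interval -0.46 to 0.27, adjusted p = 0.93 in limma).

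Known β-cell targets of Pdx1 and Nkx6-1 had lower signals beside these factors. Of 13 measured targets, 8 had every Jarid2 Δpanc sample below every Jarid2 WT sample and 0 above (61.5% below, against 5.66% of all genes). The list was chosen with earlier results of these data known. It holds Ins2, Iapp, G6pc2 and Slc30a8, which the paper reports as downregulated in these arrays, so its share is no independent support. Of the 13, 8 were lower at an unadjusted p under 0.05 in limma, against 797 of 18194 genes, and 0 at an adjusted one. The median log2 difference was -0.23 against 0 over all genes. Ins2, which encodes insulin, had 2490, 2720 and 3234 in Jarid2 Δpanc against 5763, 6597 and 5117 in Jarid2 WT, a log2 difference of -1.05 (adjusted p = 0.232 in limma). The amylin gene Iapp had 2709, 2710 and 3247 in Jarid2 Δpanc against 5972, 6648 and 5953 in Jarid2 WT, a log2 difference of -1.10 (adjusted p = 0.187 in limma). The convertase gene Pcsk1, the islet glucose-6-phosphatase gene G6pc2 and the zinc transporter gene Slc30a8 had log2 differences of -0.69, -1.17 and -1.26, again without overlap. Within arrays, the log2 ratio of Ins2 to Pdx1 relative to the Jarid2 WT mean was -1.28, -1.14 and -0.97 in Jarid2 Δpanc, against -0.14, 0.29 and -0.15 in Jarid2 WT. That of Iapp to Nkx6-1 was -1.01, -1.40 and -0.95 in Jarid2 Δpanc, against -0.24, 0.22 and 0.02 in Jarid2 WT. Each ratio separated the groups, with an exact two-sided permutation p of 0.1, and shows unequal change only.

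Gata6, a zinc finger factor that acts with Gata4 in pancreas formation, has 3 probe sets that disagreed. The brightest, 1425464_at, had 522, 658 and 613 in Jarid2 Δpanc and 680, 676 and 585 in Jarid2 WT, with overlap and a log2 difference of -0.12 ± 0.11 (95% interval -0.42 to 0.19, adjusted p = 0.823 in limma). Probe set 1425463_at had 185, 180 and 206 in Jarid2 Δpanc and 202, 178 and 190 in Jarid2 WT, both groups averaging 190 (95% interval of the log2 difference -0.20 to 0.20). The dim 1443081_at had 52, 53 and 61 in Jarid2 Δpanc and 28, 44 and 18 in Jarid2 WT. There the groups did not overlap, the Jarid2 WT signals reached down to near the floor, and the log2 difference was 0.97 ± 0.36 (95% interval 0.03 to 1.92, unadjusted p = 0.0452, adjusted p = 0.58 in limma). Without Jarid2 WT replicate 3, the lowest sample, it was 0.65, and without Jarid2 WT replicate 2 it was 1.30. Among probe sets with a mean signal of 16 to 64, as this and Prox1 1457432_at have, 6.65% lay above in every Jarid2 Δpanc sample and 3.41% below, whereas from 64 upwards the shares were 8.66% and 7.64%. The part of this dim-range excess in the 2 dim probe sets was not tested. Of 7 other GATA factors and their cofactors, none had groups that did not overlap, against 5.71% of all genes above and 5.66% below.

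Onecut2, a cut homeodomain factor related to Onecut1, was at or near the floor on all 3 probe sets. Probe set 1440005_at had 16, 17 and 31 in Jarid2 Δpanc and 15, 16 and 7 in Jarid2 WT. Probe set 1444980_at had 16, 17 and 22 in Jarid2 Δpanc and 15, 13 and 12 in Jarid2 WT. Probe set 1460044_at had 23, 13 and 27 in Jarid2 Δpanc and 1, 19 and 11 in Jarid2 WT. Above the floor of 16 were 2, 2 and 3 of the 6 arrays, so that the groups tied or overlapped at the floor and log2 differences of 0.35, 0.18 and 0.34 cannot be read as fold changes. Onecut1 itself, the early Onecut factor of the bud, was well above the floor with 154, 195 and 167 in Jarid2 Δpanc and 174, 147 and 164 in Jarid2 WT, which overlapped.

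Myc, the growth-promoting factor that pairs with Max, had the narrowest interval of the 14 probe sets. It had signals of 523, 500 and 531 in Jarid2 Δpanc and 546, 490 and 492 in Jarid2 WT. The Jarid2 Δpanc samples lay inside the Jarid2 WT range, at 518 ± 16.1 against 509 ± 31.8 (SD, n = 3 each) and a log2 difference of 0.03 ± 0.05 (95% interval -0.12 to 0.17, adjusted p = 1 in limma). Mycn had 322, 303 and 321 in Jarid2 Δpanc and 390, 273 and 255 in Jarid2 WT. Of 25 known Myc targets in ribosome and nucleotide synthesis and growth, 3 lay below in every Jarid2 Δpanc sample and 0 above. The share below was 12%, against 5.66% of all genes below and 5.71% above, and the median log2 difference was -0.06. Among the targets, spermidine synthase Srm had 1582, 1547 and 1571 in Jarid2 Δpanc against 1942, 1891 and 1844 in Jarid2 WT (log2 difference -0.27 ± 0.02, adjusted p = 0.187 in limma). The ribosome assembly gene Nop16 had a log2 difference of -0.06. In the Max network 1 of 11 genes lay below and 1 above (9.09% each, against the same 5.66% and 5.71% of all genes). The one below was Mlx, which pairs with Mondo proteins, at -0.33 ± 0.05 (adjusted p = 0.255 in limma).

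**Figure D3:**
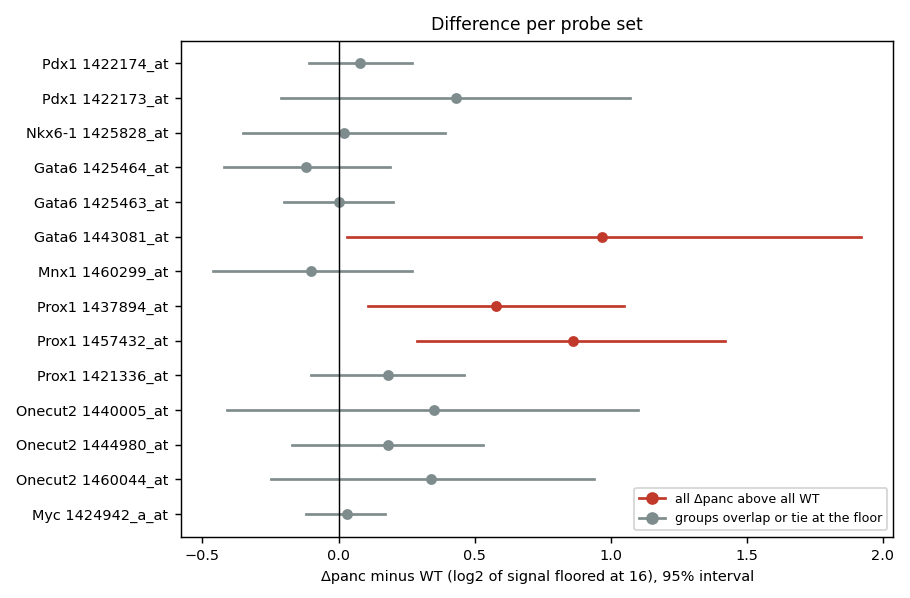
Jarid2 Δpanc minus Jarid2 WT (x axis, log2 of signal floored at 16) for each of the 14 probe sets, with points for the limma estimates and lines for 95% intervals. Red marks the 3 probe sets on which every Jarid2 Δpanc sample lay above every Jarid2 WT sample, and Myc has the narrowest interval (-0.12 to 0.17).

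Other progenitor factors had log2 differences on both sides of 0. Of 23 transcription factors of progenitors and of tip and trunk epithelium, 3 lay above in every Jarid2 Δpanc sample and 1 below. These were 13% and 4.35%, against 5.71% and 5.66% of all genes. The median log2 difference was 0.01, with 13 positive and 9 negative. The same counts, 3 higher and 1 lower, had an unadjusted p under 0.05 in limma, against 778 higher and 797 lower of 18194 genes. Of the 23, 0 had an adjusted p under 0.05. Hhex, a homeodomain factor of the ventral bud, had 453, 523 and 536 in Jarid2 Δpanc against 362, 328 and 332 in Jarid2 WT (log2 difference 0.56 ± 0.08, adjusted p = 0.251 in limma). Foxa1, a pioneer factor of the endoderm, had 59, 51 and 34 in Jarid2 Δpanc against 19, 19 and 12 in Jarid2 WT (log2 difference 1.38, adjusted p = 0.278 in limma). Its Jarid2 WT signals lay near or under the floor, and with a floor of 32 the log2 difference was 0.55. Nkx6-2, the closest relative of Nkx6-1, had 46, 46 and 30 in Jarid2 Δpanc against 8, 2 and 10 in Jarid2 WT, all of the last under the floor (log2 difference 1.32 from the floor, adjusted p = 0.249 in limma). Prox2, the relative of Prox1, had 26, 22 and 22 in Jarid2 Δpanc against 15, 18 and 2 in Jarid2 WT. Both relatives thus lay above Jarid2 WT in each Jarid2 Δpanc sample, at signals close to the floor. They were named for their small p. Of 7 other members of the Onecut, Nkx6, Prox and Myc families, 2 lay above (28.6%, against 5.71% of all genes) and 0 below. Nkx6-3 overlapped, with 23, 18 and 10 in Jarid2 Δpanc against 3, 14 and 10 in Jarid2 WT. Ptf1a, which directs tip cells to the acinar fate, had 2067, 2205 and 1579 in Jarid2 Δpanc and 2512, 2699 and 1987 in Jarid2 WT, which overlapped at a log2 difference of -0.30.

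Partners and upstream signals of the members are given by the same counts, beside 5.71% of all genes above and 5.66% below. Of 8 TALE homeodomain partners, 2 lay above (25%) and 0 below, at a median log2 difference of 0.13. Meis1 had 590, 598 and 596 in Jarid2 Δpanc and 578, 520 and 516 in Jarid2 WT, and Meis2 overlapped at a log2 difference of -0.23. Of 22 mesenchymal and epithelial signals that maintain progenitors, 3 lay above (13.6%) and 0 below, at a median of 0.07. In both lists 0 passed at an adjusted p under 0.05 in limma. At an unadjusted p under 0.05, 1 and 2 genes were higher (12.5% and 9.09%, against 4.28% of all genes). They included the Hedgehog receptor Ptch1 at 0.21 ± 0.03 (adjusted p = 0.262 in limma) and the Notch ligand Dll1 at 0.29 ± 0.11 (adjusted p = 0.577 in limma).

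Profiles like that of each member were sought among 9955 genes with a mean signal of at least 64, by the mean absolute difference of centred log2 signals over the 6 arrays. The genes nearest to Prox1 were Wnt9a and Zik1, at 0.0619 and 0.0644. Wnt9a had 81, 89 and 71 in Jarid2 Δpanc and 64, 46 and 48 in Jarid2 WT. Within 0.1 of Prox1 lay 12 genes, against 2485 of Pdx1, 3220 of Myc, 1345 of Gata6, 727 of Nkx6-1 and 433 of Mnx1. The distance is absolute, so a profile that varies little lies near the many genes that also vary little. These counts thus depend on the spread of each member over the arrays. The nearest were Clspn and Pih1d1 for Pdx1, Rpap1 and Mbp for Nkx6-1, Smcr8 and Bex2 for Gata6, Psmb10 and Cry1 for Mnx1, and Prrx1 and Atp2c1 for Myc. None is given for Onecut2, whose profile lay mostly at the floor. These distances are over 6 arrays that share their scaling and describe these arrays only.

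**Figure D4:**
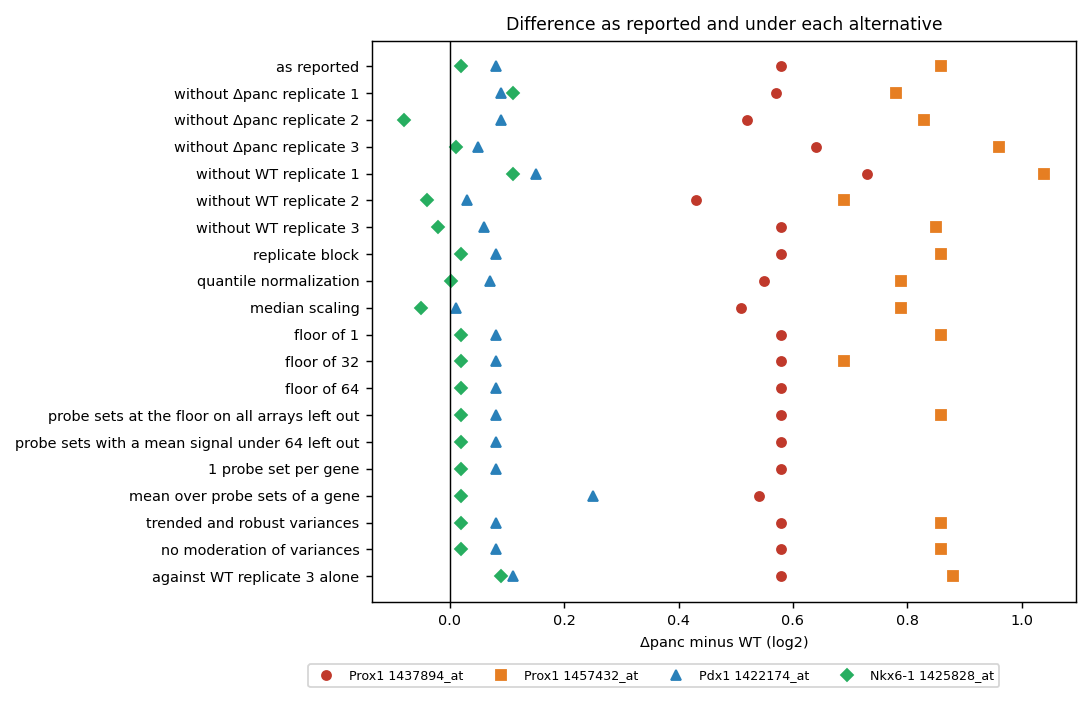
Jarid2 Δpanc minus Jarid2 WT (x axis, log2) for 2 probe sets of Prox1 and the brightest of Pdx1 and Nkx6-1 as reported (top row) and under each alternative (other rows), where a missing symbol means that the probe set had no value of its own there. In the row for the mean over probe sets of a gene, the symbol of a brightest probe set stands for the mean over all probe sets of its gene. Prox1 1437894_at lies between 0.43 and 0.73 and 1457432_at between 0.69 and 1.04 throughout. Pdx1 lies between 0.01 and 0.25, the latter being the mean over its probe sets, and Nkx6-1 lies on both sides of 0.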

How the data were processed

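The deposited values are linear intensity values of 45101 probe sets per array, made by the authors with MAS5 per the labels, in a version not given in the sources used here. On every array their mean was 150 after 2% was trimmed at each end. The paper analysed RMA values with LIMMA, and RMA needs scanner files, which were not used here. A description label names islets in glucose whereas all other labels name e15.5 pancreas, and the other labels were followed.

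Probe sets with 1 gene symbol were kept (34958), and 932 with several and 9211 without a symbol were left out. A floor of 16 was applied before log2, and Jarid2 Δpanc was set against Jarid2 WT in limma 3.58.1 (R 4.3.3, lmFit with eBayes, two-sided, 4 residual degrees of freedom). Adjustment was by Benjamini-Hochberg over all kept probe sets, at a threshold of 0.05. Single values were also compared by exact permutation. For counts over 8 pathway and 11 marker lists, each gene was taken by its brightest probe set. Genes other than the 7 members were named from those with the 2 highest means or, up to 3, with the smallest unadjusted p under 0.05 in a list, and as the 2 nearest profiles of each member. Members and lists were chosen with earlier results of these data known. Alternatives covered samples left out, the replicate number as a block, normalization, the floor, filters, 1 probe set or a mean per gene, variance moderation and the threshold, and the comparison with 1 Jarid2 WT sample was added after seeing the data. The fit was tested on simulated data. The number of arrays limits the precision.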

Additional observations from a re-analysis of the deposited data

How the results depend on the processing

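None of the 14 member probe sets passed an adjusted p of 0.05 in limma in any alternative, nor of 0.1 with all samples. Prox1 and Pdx1 kept their direction in each alternative. For Prox1 1437894_at and 1457432_at this was fixed in advance where samples were left out, since their groups did not overlap. Over all probe sets 1 passed, and with each sample left out in turn 3 to 18 did. With median scaling it was 1 again, lower in Jarid2 Δpanc and not the higher one of the reported values. The count was 5 with quantile normalization, 3 with a floor of 32, 3 with probe sets of a mean signal under 64 left out, 3 at an adjusted p of 0.1, and 525 against Jarid2 WT replicate 3 alone, where that lone sample is assumed to vary like the other group. It was 0 with a floor of 1, a floor of 64, probe sets at the floor on all arrays left out, 1 probe set per gene, or the mean over probe sets. Among the genes of the lists, 0 passed, with 0 to 1 when a sample was left out (Nkx6-2 without Jarid2 Δpanc replicate 3, at a log2 difference of 1.52) and 11 against Jarid2 WT replicate 3 alone. At an unadjusted p under 0.05, 1 to 4 member probe sets were higher over all alternatives, against 3 as reported, and 1 was lower without Jarid2 Δpanc replicate 1. The causes were not tested.

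Small differences changed sign. Nkx6-1 was at -0.05 with median scaling, and at between -0.08 and 0.11 with a sample left out, being below 0 without Jarid2 Δpanc replicate 2 (-0.08), Jarid2 WT replicate 2 (-0.04) or Jarid2 WT replicate 3 (-0.02). Gata6 1425464_at was at 0.02 against Jarid2 WT replicate 3 alone. The mean over the 3 Gata6 probe sets, a value of the gene and not of 1425464_at, was at 0.29. Gata6 1425463_at was at -0.03 with quantile normalization, -0.06 with median scaling, and -0.06 to 0.05 with a sample left out, being below 0 without Jarid2 Δpanc replicate 3 (-0.06) or Jarid2 WT replicate 2 (-0.04). Mnx1 was at 0.03 with a floor of 64 and at -0.23 to 0.02 with a sample left out, being above 0 without Jarid2 Δpanc replicate 3. Myc was at -0.04 with median scaling and at -0.0013 to 0.08 with a sample left out, being below 0 without Jarid2 WT replicate 2. Of the other named genes, Onecut1 was at -0.01 to 0.16 with a sample left out, Mycn at -0.05 to 0.26, and Nop16 at 0.13 as the mean over its probe sets. Median scaling moved the differences by a median of -0.067, and by less where signals lay at the floor. Of the probe sets at an unadjusted p under 0.05 it put 31.6% higher in Jarid2 Δpanc, against 55.7% as deposited and 49.8% with quantile normalization.

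Same-numbered samples did not deviate together (correlations of -0.0265, -0.04 and -0.0349 over 15872 probe sets), so no pairing by replicate number was seen. The labels name no litters, so a shared litter could not be checked. With the replicate number as a block 0 probe sets passed, 1 of the 14 member probe sets was higher at an unadjusted p under 0.05 (3 without the block), and the log2 difference of Prox1 1437894_at stayed at 0.58 with an unadjusted p of 0.07 in limma. Dim probe sets and 3 samples per group limit what these arrays can show, and Onecut2 could not be measured in this respect.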
